A study of Nematostella vectensis with 123 samples.

Results

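The 150 transcript models described here were those whose levels differed most from one embryo to the next among 36 individually sequenced embryos of Nematostella vectensis, the starlet sea anemone, labelled with times from 24 to 48 h. They were selected from measured values. A model was considered if its median level in these 36 embryos was at least 30 CPM, where CPM is a model's share of the counts assigned to all models, scaled to a fixed total. Models of 2 very large identifier stems, which together cover 3692 models, were left out. Of the 40499 models counted, 4915 met this minimum, and the 150 with the largest median absolute deviation (MAD) of log2(CPM+1) are the members. The spread in these 36 embryos is therefore a description of how the members were picked, and no test is given for it.

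The study collected 123 single embryos from the 4-cell stage onward, freed of egg jelly with cysteine and kept at 20 °C in diluted sea water, with 1 time per embryo. No genotype, strain, sex or treatment distinguishes the embryos in the labels, and nothing there says whether they came from separate clutches. The times carry no unit and were read as minutes, from a protocol that collected every 20 min. By number, embryos 1 to 73 run forward in time (embryo 50, labelled -20, excepted) and embryos 74 to 123 run backward, and these runs are called the first and second number block. The 36 embryos that picked the members are embryos 37 to 73 of the first block without embryo 50, labelled 1440 to 2840 min. They had 36 distinct times, 20 to 60 min apart (median 40 min), so they were close in age but not of equal age. Embryos not used for the choice were 49 of the second block (2360 to 4320 min) and 36 of the first block before 24 h (-20 to 1400 min).

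Nematostella is a cnidarian whose embryo cleaves, forms a hollow blastula, gastrulates by folding in one pole, and becomes a ciliated, swimming planula with an outer and an inner cell layer. The embryos were sequenced whole by CEL-Seq, which barcodes each embryo and counts the 3' ends of polyadenylated RNA after linear amplification, so a member's level is an average over all cell types of 1 animal. ERCC spike-ins are synthetic RNAs added to a sample. The ratio of transcript model counts to spike-in counts, called the spike-in ratio below, moves with the amount of captured embryo RNA when the same amount of spike-in is added to each embryo, and that amount is not given in the sources used here. The reference table (assembly jaNemVect1.1) holds 38762 genes, and 0 of the 150 identifiers were found in it, so the members are given by identifier, and no gene name, role or cell type marker can be attached to them. In whole embryos, fewer cells of a type and less RNA per cell cannot be told apart.

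Counts assigned to models in the 36 embryos ranged from 229707 (embryo 68) to 2646585 (embryo 40), with a median of 953888. With 3 counts as the limit that a count of 0 allows, a model without counts may have stood as high as 13.1 CPM in embryo 68 and 3.15 CPM at the median depth. The spike-in ratio ran from 1.70 (embryo 61) to 17.5 (embryo 68, which held 13123 spike-in counts against a median of 184536). Counts on no feature were 7.68 to 32.1% of all counts (highest in embryo 58), and unaligned counts 33.0 to 48.7% (highest in embryo 56). Among the 36 embryos the log2 spike-in ratio and label time gave r = 0.15 (two-sided permutation test, p = 0.39, adjusted p = 0.59 over 3 relations; rho = 0.10, p = 0.54, adjusted p = 0.82; r = 0.18 once the 2 embryos most distant in time were dropped). The ratio did move with the logarithm of the total count (r = 0.44, permutation p = 0.0070, adjusted p = 0.021; rho = 0.57, p = 0.00036, adjusted p = 0.0011; r = 0.68 without the 2 farthest). The total count is the numerator of the ratio, so a positive relation is built in and this p does not test for more than that.

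The members spread over much wider ranges than models of like abundance. Their MAD ran from 0.947 to 2.62 (median 1.06 on the log2 scale), against a median of 0.409 in the other 4765 models that met the minimum. Counting error alone would give a member a median MAD of 0.148. Median levels were alike, 56.1 CPM in the members and 59.6 CPM in the others. The limit cut through a continuous range, and the models on both sides of it were close. The last 2 members, Nv.T1.6194.2 and Nv.T1.60758.1, had MADs of 0.951 and 0.947. Just outside, Nv.T1.9253.1 and Nv.T1.66355.10 had 0.941 and 0.940. In all, 48 members dropped under 1 CPM in at least 1 of the 36 embryos, as did 215 (4.37%) of the 4915 models, and no member did so in 5 or more embryos.

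**Figure D1:**
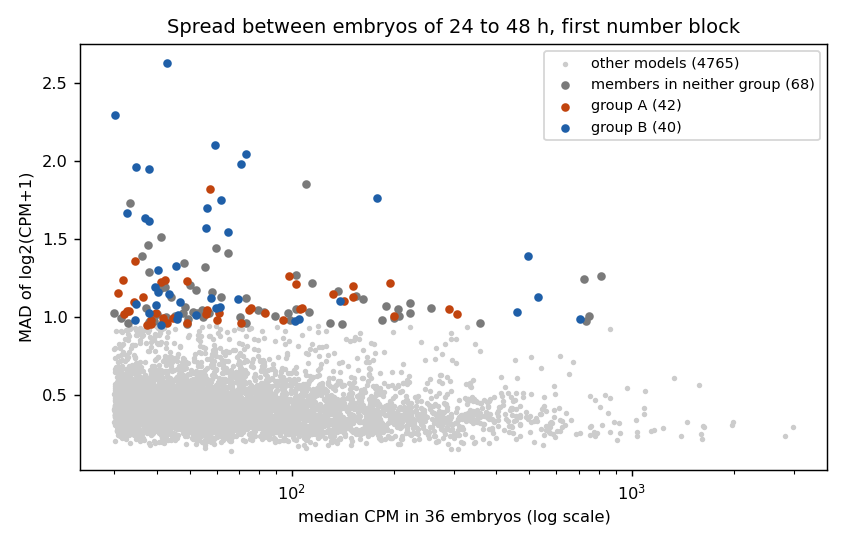
Median CPM (x axis, log scale) against the MAD of log2(CPM+1) (y axis) over 36 embryos, 1 point per model. Members, coloured by co-varying group, lie at 0.947 and above because they were selected that way, and the highest, in group B, reaches 2.62.

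The 6 members with the widest spread went from absent or nearly absent to abundant. Nv.T1.43091.1 had a lowest level of 0 CPM (embryo 68), a median of 42.9 CPM and a highest level of 546 CPM (embryo 61). Nv.T1.68291.1 ran from 0.378 CPM (embryo 40) through a median of 30.1 CPM to 525 CPM (embryo 62). Nv.T1.31889.1 was at 0 CPM in 2 embryos, embryo 41 among them, at a median of 59.3 CPM and at 1633 CPM in embryo 49. The other 3 had extremes in some of the same embryos. Nv.T1.29052.1 ran from 2.85 CPM (embryo 64) through 73.5 CPM to 1640 CPM (embryo 58). Nv.T1.3260.1 ran from 0 CPM (embryo 41) through 70.9 CPM to 1946 CPM (embryo 49), and Nv.T1.4267.1 from 0 CPM (embryos 56 and 68) through 34.8 CPM to 408 CPM (embryo 61). The named embryos of the lows (40, 41, 56, 64 and 68) had spike-in ratios of 7.12 or more and those of the highs (49, 58, 61 and 62) 4.98 or less, on either side of the median of 5.85. The second embryo in which Nv.T1.31889.1 was at 0 CPM was not counted among these lows. All 6 belong to one set of members that moved together, described below as group B.

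Little of this spread followed label time. A smooth curve of time (natural cubic spline with 3 degrees of freedom) took up a median of 15.8% of a member's variance, against 13.7% over all 4915 models. It took up under 20% in 94 members and over 50% in 4, led by Nv.T1.27001.1 with 62.4%. Over 50% was reached by 1.63% of all 4915 models. After the curve was removed the members still had a median MAD of 0.926, against 0.370 in the other models. Levels in embryos next to each other in time differed by a median of 1.33 on the log2 scale in the members and 0.576 in the others. Neighbours in time were thus about as unlike as embryos far apart: the mean squared neighbour difference, divided by 2 times the variance (1 where time order plays no part), had a median of 0.870 in the members and 0.900 in the others.

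A straight line of label time was called for 28 of the 150 members, 19 rising and 9 falling (edgeR quasi-likelihood test, adjusted p under 0.05 over all 14130 models tested), where 7.2% of all models were called. The member count, and the slopes and p-values of members given here, use the same embryos as the selection. The members named were those with the largest called slopes, so all of these values are a description. The steepest rise was that of Nv.T1.97.6, from 0 CPM in embryo 68 through a median of 55.7 CPM to 908 CPM, with a median of 36.4 CPM in the 18 embryos of 24 to 36 h and 146 CPM in the 18 of 36 to 48 h. Its slope was 4.32 ± 1.25 (SE) on the log2 scale per 24 h (edgeR adjusted p = 0.026), and without embryo 38 the adjusted p was 0.057. The ranges overlapped, with 1.89 to 357 CPM in the earlier embryos. At the label times shared by both blocks, the median of Nv.T1.97.6 was 82.8 CPM in the first block and 8.60 CPM in the second. Of these 11 pairs of embryos, 2 were higher in the second block. Nv.T1.25299.1 ran from 8.31 through 154 to 1358 CPM, highest in embryo 68, and its median was 109 CPM before and 351 CPM after 36 h (4.26 ± 0.68, edgeR adjusted p = 9.6e-05). In the same 11 pairs its medians were 353 CPM in the first block and 145 CPM in the second, with 3 pairs higher in the second. Nv.T1.32262.1 ran from 12.5 CPM (embryo 65) through 722 to 5159 CPM, with medians of 2133 and 480 CPM (-3.56 ± 0.60, edgeR adjusted p = 0.00018). Its near twin Nv.T1.32261.1, the member with the highest median level, ran from 20.5 through 816 to 5080 CPM (-3.25 ± 0.58, edgeR adjusted p = 0.00035). Among the 36 embryos the high values of this pair lay before 36 h, and none of the 18 of 36 to 48 h passed 1062 CPM. At label times shared by both blocks, second-block embryos held 832 to 2170 CPM of Nv.T1.32261.1 and 840 to 2119 CPM of Nv.T1.32262.1. Each model was higher in the second block in 10 of 11 pairs, so the fall describes the first block only. Without embryo 37 the line was called for 23 members, and without embryo 68 for 31. Scaled to the spike-ins, 33 were called, 28 rising and 5 falling, where 2.96% of all models were called. With DESeq2 it was 46, 36 rising and 10 falling, where 12.2% of all models were called.

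The members fell into 2 large co-varying groups and a remainder. Average-linkage clustering of their correlations over the 36 embryos, cut at r = 0.5, gave group A with 42 members and group B with 40. The other 68 members fell in clusters of at most 9, 17 of them alone. Within group A the median correlation between members was 0.75, within group B 0.70, and between a member of A and a member of B -0.53. Removing the time curve left these at 0.78, 0.71 and -0.59, and thinning every embryo to 229707 counts at 0.68, 0.66 and -0.49. The clustering used these same values, so they describe the groups and test nothing. Among the other 4765 models the median correlation was 0.05.

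**Figure D2:**
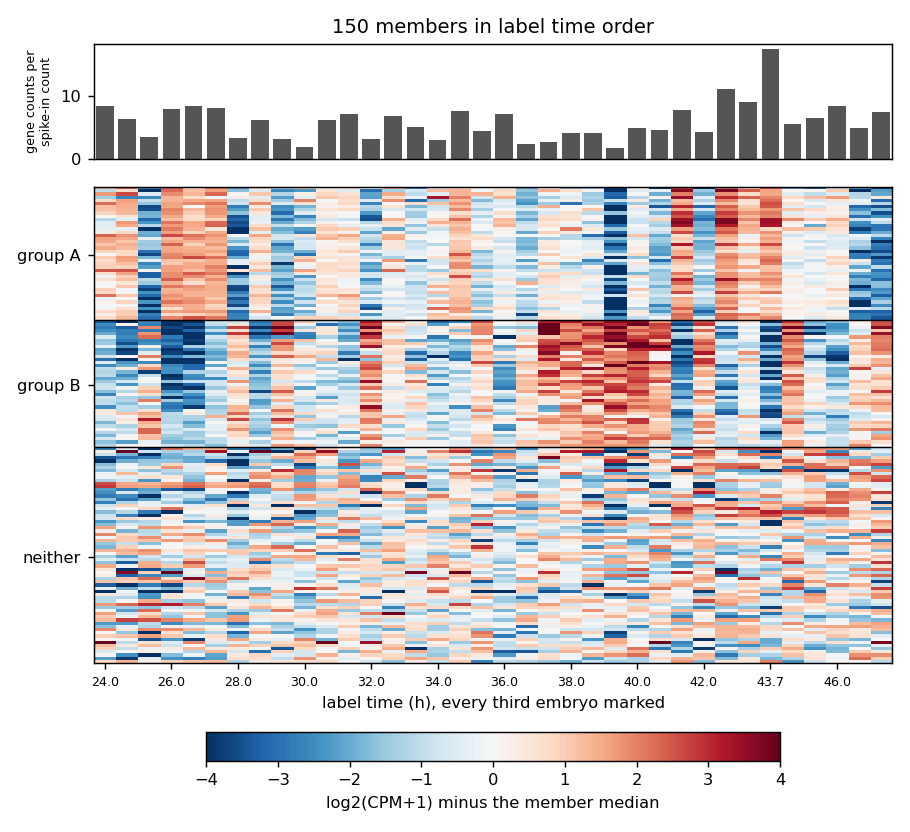
Levels of the 150 members (rows, grouped; colour is log2(CPM+1) minus the member's median, colours stop at -4 and 4) in 36 embryos in order of label time (columns), with the spike-in ratio of each embryo above. Columns low in group A are mostly high in group B, and embryo 61, with the lowest ratio of 1.70, is the darkest blue of group A.

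The 2 members nearest the mean of group A show its pattern. Nv.T1.24200.1 ran from 3.37 CPM (embryo 61) through a median of 94.5 CPM to 649 CPM (embryo 66). Nv.T1.23834.1 ran from 0 CPM (embryo 61) through 41.2 CPM to 359 CPM (embryo 64). Both were high in embryos 64, 66 and 68, at 608, 649 and 422 CPM in Nv.T1.24200.1, and low in embryo 65 between them, at 66.2 CPM. The members nearest the mean of group B did the opposite in these same embryos. Nv.T1.49894.1 was at 14.9 CPM in embryo 64, 231 CPM in embryo 65, 17.3 CPM in embryo 66 and 4.35 CPM in embryo 68, with a median of 61.8 and a highest level of 1460 CPM (embryo 63). Nv.T1.49521.1 stood at 17.8, 221, 34.5 and 21.8 CPM in embryos 64, 65, 66 and 68, with a median of 69.3 CPM over the 36 embryos.

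Averaged over its members, the log2(CPM+1) of group A ran from 2.53 (embryo 61) to 8.11 (embryo 66), and that of group B from 3.23 (embryo 68) to 8.44 (embryo 62). The mean level moved by at least 1 between neighbours in time in 23 of 35 neighbour pairs for group A and in 21 for group B. The groups moved in opposite directions in 27 of the 35. Embryos 63 to 66 show it best: group A stood at 4.58, 8.04, 4.47 and 8.11, and group B at 7.67, 3.66, 7.41 and 4.60. Group B also stayed high through 6 embryos in a row, 58 to 63, at 7.82, 7.74, 8.00, 8.36, 8.44 and 7.67. All counts of the 150 members together were 1.17 to 3.51% of an embryo's model counts (median 2.63%). Whether the make-up of the libraries had a part in these levels was not tested.

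Group A was high and group B low in embryos with many counts per spike-in count. The mean level of group A correlated with the log2 spike-in ratio at r = 0.71 (rho = 0.74, n = 36; r = 0.68 without the 2 embryos farthest from the median ratio), and that of group B at r = -0.65 (rho = -0.68; r = -0.68 without them). With label time the values were r = -0.12 and r = 0.28. The relation to the ratio held in both time windows: for group A r = 0.79 in the 18 embryos of 24 to 36 h and 0.68 in the 18 of 36 to 48 h, and for group B -0.63 and -0.75 (without the 2 farthest embryos of each window, 0.95 and 0.47, and -0.84 and -0.65). Total counts moved with the same levels, at r = 0.48 for group A and -0.28 for group B. The shares of counts on no feature gave 0.07 and 0.21, and unaligned shares 0.22 and -0.22. These are descriptions over embryos of the selection, and the part of depth in them is addressed only by the fits below. From one embryo to the next in time, group A moved with the ratio in 26 of 35 steps and group B against it in 24.

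**Figure D3:**
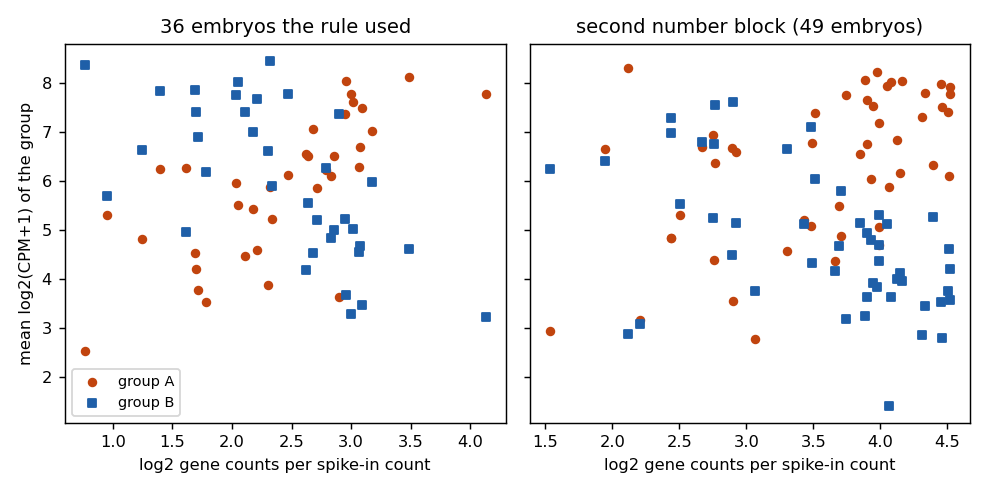
Mean log2(CPM+1) of group A and group B (y axis) against the log2 spike-in ratio (x axis), 1 point per embryo and group, in the 36 embryos of the selection (left) and 49 embryos of the second number block (right). Group A rises and group B falls with the ratio on both sides, with r = 0.71 and -0.65 on the left and 0.51 and -0.52 on the right.

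Fitted model by model, the spike-in ratio was called for 90 of the 150 members in the 36 embryos, 49 with a positive and 41 with a negative slope, where 9.49% of the 15735 models tested were called. These embryos also chose the members and formed the groups, so the counts and p-values here describe the selection, and a shared sign within a group follows from the clustering. In group A 39 of 42 members were called, all upward, and in group B 36 of 40, all downward. Of the 68 members in neither group, 10 were called upward and 5 downward. Nv.T1.7570.1, in neither group, had the steepest rise: from 0 through a median of 109.9 to 1200 CPM (embryo 64), it gained 1.96 ± 0.38 (SE) on the log2 scale per doubling of the ratio (edgeR adjusted p = 0.00074). Nv.T1.18154.1 of group A ran from 0 (embryo 61) through 30.8 to 416 CPM (embryo 66), with a slope of 1.75 ± 0.30 (edgeR adjusted p = 0.00017). The steepest falls were those of Nv.T1.31889.1 (-2.28 ± 0.54, edgeR adjusted p = 0.0041) and Nv.T1.49894.1 (-2.25 ± 0.49, edgeR adjusted p = 0.0022), whose levels are given above. Leaving out 1 embryo at a time gave 81 (without embryo 66) to 98 (without embryo 73) members called.

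At a given label time the count was 101 members, 51 upward and 50 downward, where 11.7% of all models were called. Of group A 41 were called upward and of group B 39 downward. As above, these counts and p-values describe the selection. Nv.T1.12032.1 of group A, which ran from 3.37 CPM (embryo 61) through 132 to 1772 CPM (embryo 66), then had a slope of 1.68 ± 0.29 (edgeR adjusted p = 0.00011), after Nv.T1.7570.1 with 1.93. Nv.T1.31889.1 fell by 3.18 and Nv.T1.3260.1 by 2.90 on the log2 scale per doubling. At a given total count, 50 members were called, 36 upward and 14 downward, where 3.1% of all models were called. There group A had 29 called upward and group B 13 downward, or 36 with DESeq2, again in the embryos that formed the groups. When counts were scaled to the spike-ins, the median slope of all models was 1.00 by construction. There 97 members (64.7%) were called, 89 upward and 8 downward, where 90.1% of all models were called. With time in the fit, 86 were called upward and 16 downward, where 88.8% of all models were called. These counts alone therefore do not set the members apart. Without time in the fit, group B had 8 members called downward and a median slope of -0.46.

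The leading variation of the models that were not selected moved with the same groups. The first principal component of the other 4765 models held 13.9% of their variance over the 36 embryos. Its scores correlated at an absolute r of 0.93 with the difference between the mean levels of group A and group B, at 0.72 with the log2 spike-in ratio and at 0.05 with label time. The second component held 11.6% and correlated at an absolute r of 0.67 with time. These embryos are those of the selection, and the components share their library totals.

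In the second number block, whose embryos played no part in the selection, the members were again more variable than other models. Their median MAD over 49 embryos was 0.897, against 0.492 in the other models. A MAD of at least the lowest member MAD in the selection was reached by 70 members (46.7%), and by 5.41% of all 4915 models. Ranked anew over these 49 embryos, 43 members were again among the 150 widest models with a median of 30 CPM, which is 28.7% of each list. They were 24 of group A, 11 of group B and 8 of neither, while 63 of the new 150 had been under the minimum in the selection. The 43 came from the 109 members with a median of 30 CPM or more here, and the new 150 from 4324 such models. This minimum shaped the split. All of group A had medians of at least 39.0 CPM, whereas the median member of group B stood at 26.4 CPM. The median MAD here was 1.01 in group A and 1.27 in group B, so the split does not show less spread in group B. Counts per embryo were 58680 to 2113426 in this block, and 3 counts were worth up to 51.1 CPM in the shallowest embryo, so lows near 0 are less sure there.

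Correlations within and between the groups had mostly the same signs in the second block. All 861 pairs of group A members correlated positively (median r = 0.60), as did 95.6% of pairs within group B (median 0.37), and 86.4% of pairs across the groups correlated negatively (median -0.24). The median among other models was 0.14. In the 34 embryos with at least 500000 counts the medians were 0.73, 0.34 and -0.35, against 0.03 in the others. Mean levels followed the ratio at r = 0.51 (rho = 0.49) for group A and r = -0.52 (rho = -0.53) for group B, and at 0.48 and -0.48 without the 2 farthest embryos. Group A followed the total count more closely here, at r = 0.62, against -0.13 for group B. With label time the values were -0.14 and 0.16. In the 34 deeper embryos the total count gave 0.58 and -0.49, label time -0.34 and 0.40, and the ratio 0.36 and -0.59.

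The spike-in ratio was called for 52 members in the second block, 16 upward and 36 downward, where 7.7% of the 15773 models tested were called. Group B gave 30 of the downward calls, with all 40 slopes negative and a median of -1.05 on the log2 scale per doubling. Group A gave 8 upward calls, with all 42 slopes positive and a median of 0.51, above a median of 0.15 over all models. Of the others, 8 were called upward and 6 downward. Leaving out 1 embryo at a time gave 45 to 75 members and moved the number for group A most: without embryo 86, where its mean level was highest at 8.30, 27 members were called upward, and without embryo 90 it was 6. In embryos with at least 500000 counts only 1 of group A and 11 of group B were called, where 0.421% of all models were, with median slopes of 0.66 and -1.33. With median-ratio size factors 9 members were called upward and 38 downward. Scaled to the spike-ins, the median of all models was 1.07 by construction. There 100 members were called upward and 15 downward (76.7% in all), where 87.9% of all models were called. All 42 of group A lay above that median and all 40 of group B below it.

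Nv.T1.31889.1 and Nv.T1.3260.1 had the steepest falls of the second block as well. Nv.T1.31889.1 ran from 0 CPM through a median of 65.7 CPM to 17616 CPM in embryo 85, and reached 3501 CPM in embryo 81 and 1686 CPM in embryo 103, the embryo with the lowest ratio of the block at 2.89. In embryo 90, with the highest ratio of 23.0, it stood at 3.79 CPM. Its slope was -3.59 ± 0.55 (SE, edgeR adjusted p = 2.6e-05), and -2.91 without embryo 85 (edgeR adjusted p = 0.00022). Nv.T1.3260.1 matched it almost embryo for embryo, from 0 through 72.6 to 19363 CPM, with a slope of -3.58 ± 0.54 (edgeR adjusted p = 2.4e-05). The steepest rises were of 2 members in neither group. Nv.T1.6704.5 had a median of 0 CPM and a highest level of 123 CPM, so that its slope of 1.58 ± 0.47 (edgeR adjusted p = 0.027) rests on few embryos, and without embryo 109 the adjusted p was 0.070. Nv.T1.2586.1 ran from 0 through 212 to 550 CPM, with a slope of 1.04 ± 0.28 (edgeR adjusted p = 0.015). Neither rise was called in embryos with at least 500000 counts (edgeR adjusted p = 0.42 and 0.54).

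**Figure D4:**
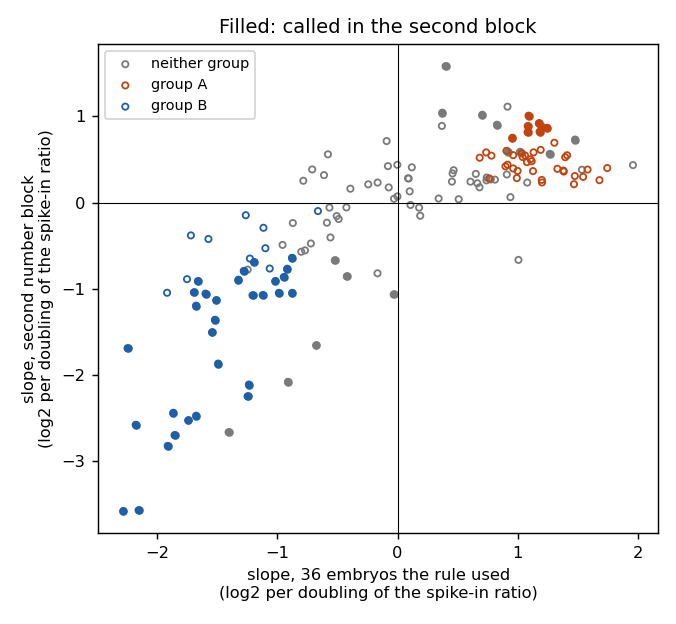
Slope of each member on the spike-in ratio in the 36 embryos of the selection (x axis) and in 49 embryos of the second number block (y axis), both in log2 per doubling of the ratio; filled points were called in the second block. Group A lies in the upper right with 42 positive slopes on each axis, and group B in the lower left with 40 negative slopes on each.

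The slopes of group A were shallower in the second block, by a median of 0.55 on the log2 scale per doubling, with all 42 differences negative. The first-block slopes come from the embryos that chose the members and formed the group, which favours steeper slopes there, so this is a description. Tested as a difference between blocks, no member was called by edgeR with its default TMM scaling, where 0.15% of all models were called. At an unadjusted p under 0.05 there were 35 members, 16 of them in group A, and 2084 of all 18027 models tested. With median-ratio size factors 3 members of group A were called lower, where 0.155% of all models were called. With DESeq2 it was 3 of group A and 1 of neither group, where 0.355% of all models were called. Label time was called for 2 of the 148 members tested in this block, both falling, where 0.199% of all models were called. They were Nv.T1.2116.3, from 0 through a median of 153 to 1390 CPM (-2.21 ± 0.46 per 24 h, edgeR adjusted p = 0.014), and Nv.T1.2116.2 of the same stem, from 24.6 through 243 to 1501 CPM (-1.49 ± 0.34, edgeR adjusted p = 0.036). Over all 49 embryos no member of group A or B was called with time by edgeR or by DESeq2. At an unadjusted p under 0.05 edgeR gave 0 of 42 and 4 of 40, and 1132 of all 13556 models. In embryos with at least 500000 counts edgeR called 1 member of group B, rising, where 0.88% of all models were called. At an unadjusted p under 0.05 it gave 5 and 18 there, and 1673 of all 15231 models. A spline of time called none in either group, where 0.37% of all models were called. It gave 16 and 10 at that unadjusted p, and 1249 of all 17036 models.

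The closest match in age came from 11 pairs of embryos with the same label time, 1 from each number block. The first-block embryos of these pairs are also among the 36 of the selection. The spike-in ratio was higher in the second block in 11 of 11 pairs, by a median of 0.67 on the log2 scale. The mean level of group A was higher in the second block in 7 pairs (median difference 0.64) and that of group B in 4 (median difference -0.84). Embryos of equal label time could differ by far more than that: at 2440 min, group B stood at 7.67 in embryo 63 and 2.85 in embryo 121, and at 2680 min at 7.77 in embryo 69 and 2.80 in embryo 115. At 2400 min embryos 62 and 122, with ratios that differed by 0.12 on the log2 scale, stood at 8.44 and 6.97.

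Between the blocks at equal time, 15 members were called, 4 higher and 11 lower in the second block, where 2.51% of all models were called and the median model stood at -0.42. The first-block embryos of the pairs helped choose the members, which needed 30 CPM in that block alone, so a fall toward the second block was favoured by the selection and the counts and p-values are a description. Of these, 1 was in group A (higher), 4 in group B (lower) and 10 in neither. Nv.T1.9795.1 of group A was at 6.74 to 147 CPM (median 37.7) in the first-block embryos and at 38.6 to 283 CPM (median 190.5) in the second, higher in 11 of 11 pairs (1.48 ± 0.33, edgeR adjusted p = 0.020, and 0.056 without the pair of embryo 70). Nv.T1.2116.3 was at 33.5 to 884 CPM (median 98.3) and at 275 to 1390 CPM (median 346), higher in 9 pairs (1.52 ± 0.37, edgeR adjusted p = 0.031), a call lost on leaving out any of 7 pairs. Both had overlapping ranges. Nv.T1.23817.1 was at 1.92 to 105 CPM (median 40.6) in the first block and at 0 to 31.0 CPM (median 0) in the second, higher there in no pair (-5.25 ± 0.84). Nv.T1.11174.1 was at 2.03 to 171 CPM (median 37.4) and at 0 to 9.46 CPM (median 0), higher in the second block in 1 pair (-3.90 ± 0.75). Both met the minimum through the first block alone, so no test is given for them. The blocks differ in depth and ratio as well as in number, and the parts of these cannot be told apart. Without the pair of embryo 70, 8 members were called, all lower. In the 12 embryos of pairs with at least 500000 counts on both sides 1 member was called, and it was none of these 4. Scaled to the spike-ins, the median model stood at 0.67 and 43 members were called, 38 higher and 5 lower, where 15% of all models were called. With median-ratio size factors 6 were called higher and 10 lower, where 2.67% of all models were called.

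Many members were at or near 0 in the first hours of development. In the 19 embryos of the first 12 h, 69 members (46.0%) had a median under 1 CPM, as did 6.00% of all 4915 models. Group A held 33 of them among its 42 and group B 12 among its 40. The median member of group A stood at 0 CPM in the first 12 h, 10.9 CPM from 12 to 24 h, 76.1 CPM from 24 to 36 h and 50.3 CPM from 36 to 48 h. In the second block it stood at 91.8 CPM before 48 h, 116 CPM from 48 to 60 h and 55.8 CPM from 60 to 72 h. The median member of group B stood at 9.49, 41.5, 37.7 and 83.9 CPM in the first block, and at 29.0, 18.9 and 35.6 CPM in the second. The median level was higher after 36 h than before it in 35 of 40 members of group B and in 13 of 42 of group A, in the embryos of the selection.

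**Figure D5:**
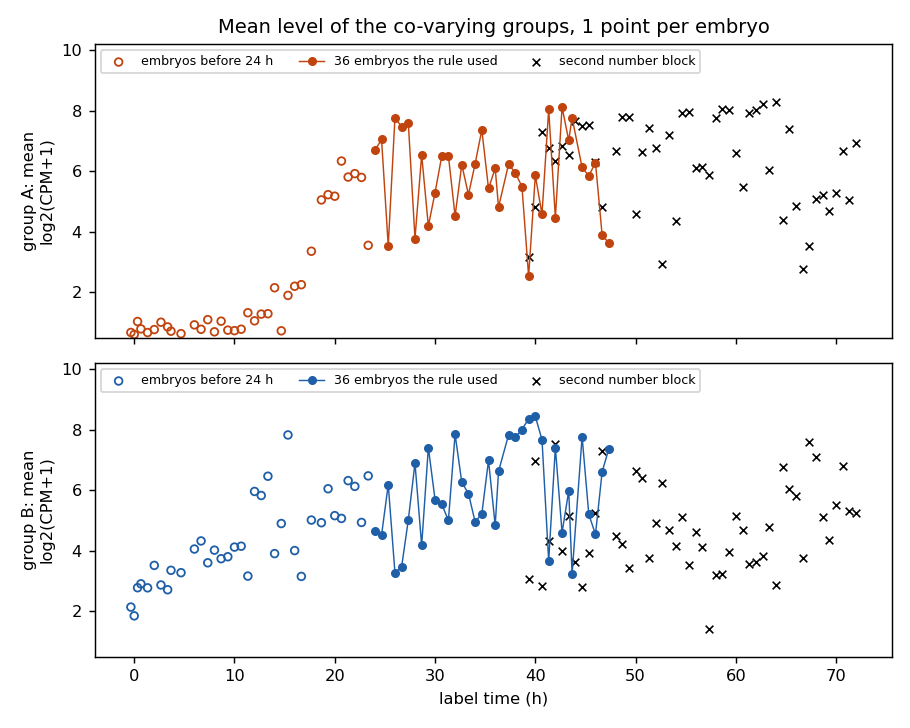
Mean log2(CPM+1) of group A (top) and group B (bottom) against label time (x axis, hours), 1 point per embryo: open circles before 24 h, joined filled circles the 36 embryos of the selection, crosses the second number block. Group A stays near its lowest level of 0.61 through the first 12 h, then reaches a range of 2.53 to 8.11 in the 36 embryos, in which neighbours swing widely.

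A line of label time before 24 h was called for 77 of the 102 members that could be tested, 71 rising and 6 falling, where 67.5% of all models were called. Only 16 of group A had enough counts, of which 12 were called, all rising. Members needed a median of 30 CPM at 24 to 48 h, and 33 of group A had a median under 1 CPM in the first 12 h. Such members could be tested only through their later counts, so a rise was favoured by the selection. The counts and p-values for rises here are a description. Group B had 35 tested, with 27 rising and 3 falling. Nv.T1.50890.1 of group A was at 0 to 3.71 CPM (median 0) in the first 12 h and at 0 to 479 CPM (median 59.2) from 12 to 24 h. Nv.T1.63960.4, also of group A, went from 0 to 2.95 CPM (median 0) to a median of 88.4 CPM (0 to 403). Both were near 0 in the first 12 h, so no test of their rise is given. In the 36 later embryos they stood at medians of 305 and 290 CPM. The steepest falls were in members of neither group. Nv.T1.5919.1 had a median of 371 CPM (6.77 to 2219) in the first 12 h and 82.8 CPM (17.7 to 318) from 12 to 24 h (-3.68 ± 1.17 per 24 h, edgeR adjusted p = 0.0060). Nv.T1.47536.1 went from 34.2 CPM (17.7 to 82.2) to 2.59 CPM (0 to 59.4; -2.77 ± 0.74, edgeR adjusted p = 0.0013) and was back at a median of 39.8 CPM in the 36 later embryos. In these early embryos the mean levels of groups A and B correlated at r = 0.55 (n = 36), and both with time, at 0.82 and 0.77. A shared rise with time can give such a value, so it does not show whether the groups opposed each other at a given time. Within the 17 embryos of 12 to 24 h the median correlation was 0.70 within group A, 0.40 within group B and 0.02 between them, again with time not removed.

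Some members are near copies of each other's profile. Over the 36 embryos 16 pairs correlated above 0.95, of which 2 share an identifier stem and 4 have stems with consecutive numbers. Nv.T1.32261.1 and Nv.T1.32262.1 reached 0.998, and 0.976 in the second block. Nv.T1.31889.1 and Nv.T1.3260.1, whose stem numbers are far apart, reached 0.978 and 0.996. The files do not say whether such pairs overlap or share sequence, so their counts are not independent evidence of 2 genes. The 150 members cover 144 stems, 113 of which hold a single model, and 6 stems have 2 members each. Of these 6, 5 pairs correlated at 0.92 to 0.98, while Nv.T1.11800.10 and Nv.T1.11800.14 gave -0.16 in the 36 embryos and 0.08 in the second block.

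Time trends outside the groups were mixed. The time curve took up a median of 21.4% of the variance of these 68 members, 8.33% in group A and 17.1% in group B, and the difference was not tested. They gave 20 of the 28 calls with time in the 36 embryos, or 29.4% of their number against 12.5% in group B, whereas with DESeq2 the shares were 39.7 and 40%. All 4 members with over 50% were among them. Others were not called on the ratio in the 36 embryos. Nv.T1.6704.5, the member with the largest MAD left after the time curve (1.98), ran from 0 through 33.5 to 574 CPM, with no call on time or ratio in the 36 embryos (edgeR adjusted p = 0.24 and 0.78). In the second block it was called on the ratio, as given above. Nv.T1.23817.1 was under 1 CPM in 4 of the 36 embryos, the most of any member, and ran up to 227 CPM around a median of 40.0 CPM. Nv.T1.62851.1 was abundant throughout, from 85.2 through 748 to 2616 CPM, with a slope on the ratio of 0.83 ± 0.32 in the 36 embryos that was not called (edgeR adjusted p = 0.089). Its time slope there was called in 8 of 36 fits that left out 1 embryo. In the second block its ratio slope was called in 49 of 49 such fits, at 0.83 to 1.02 (highest edgeR adjusted p = 0.0048).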

How the data were processed

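Raw counts were deposited by the authors, 1 whole number per embryo and row, for 40499 models, 92 spike-ins and the reads not assigned to any. The submitters' processing notes list CASAVA 1.8, Bowtie2 2.1.0 and HTSeq 0.5.4p3. The sources used here name no genome build or annotation. Libraries were DSN-treated, per the labels' protocols; this nuclease removes abundant double-stranded cDNA and can compress high levels. Library sizes left out spike-ins and unassigned rows, and 0 columns belonged to other series. Embryos under 50000 model counts were left out (1 of the second block and 1 before 24 h).

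CPM used all model counts. Tests were edgeR 4.0.16 quasi-likelihood F tests (TMM scaling, filterByExpr) on all models, in R 4.3.3, called at a Benjamini-Hochberg adjusted p under 0.05. Standard errors are the absolute log2 slope divided by the square root of F. Time slopes are per 24 h and ratio slopes per doubling. The 3 relations between embryo measures used 100000 permutations. Other values came from pandas 2.3.3, numpy 2.4.6, scipy 1.17.1 and patsy 1.0.2. The fits were tested on simulated data. P-values and standard errors measure only the spread between these embryos. The limits drawn from 3 counts cover counting error only, without molecule counts. The members, lists and tests were chosen with earlier results of these data known. Models were named by fixed rules: the 6 with the largest MAD, those at the limit, the 2 called members with the largest rise and fall in each comparison, the 2 nearest each group mean, and the 2 with most embryos under 1 CPM, the largest MAD after the time curve and the highest median. Nv.T1.27001.1, the stem pair of Nv.T1.11800.10 and single embryos were named after their values were seen. No replicate numbers are shared between groups in the labels. Alternatives were DESeq2 1.42.0, other scalings, filters, minimums and embryos left out; the fits at a given total count, of the slope difference, on thinned counts, and with second-block embryos or pairs left out were added after seeing the data. The unusual embryos that one alternative left out had been picked by hand in the earlier account.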

Additional observations from a re-analysis of the deposited data

How the results depend on the processing

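Among the 36 embryos of the selection, counts of members called on the ratio stayed within 1.5 times under the alternatives tried. These were the scalings, filter, minimum, thinning and left-out embryos (81 to 98 on leaving out 1 embryo, 97 to 104 at a given time). Counts on time did so too (23 to 31), except with DESeq2, which gave 46, where 12.2% of all models were called. The share of all models called moved with the setting, so these counts do not describe the members alone. In the second block time gave 5 members with DESeq2, 6 without a filter, 4 with at least 500000 counts and 5 with a spline. Of all models, 1.96, 7.72, 0.88 and 0.37% were called under these settings. The ratio in the second block gave 115 when scaled to the spike-ins and 12 with at least 500000 counts (45 to 75 on leaving out 1 embryo). Of all models, 87.9 and 0.421% were called under the 2 settings. Group A had 42 called upward under spike-in scaling, 5 with median-ratio size factors and 1 with at least 500000 counts. Group B had 12 and 11 called downward under the first and last of these, and 8 under spike-in scaling in the selection. The equal-age pairs gave 43 with spike-in scaling, 41 with DESeq2, 57 without a filter, 1 with at least 500000 counts and 8 to 16 on leaving out 1 pair. Of all models, 15, 12.9, 3.57, 0.365 and 1.37 to 2.36% were called under these settings. Before 24 h, 120 were called without a filter and 116 with a spline, which tests more members or shapes. There 49.3 and 68.7% of all models were called. The slope difference gave 4 with DESeq2 and 3 with median-ratio size factors, where 0.355 and 0.155% of all models were called. Of the 150 members, 94 were also picked by standard deviation, and 104 to 141 by the other rules, among them 107 after thinning and 129 with the large stems kept in. Of 840 values of named members under alternatives, 821 kept direction and call, 19 lost the call and 0 reversed. Most of these values came from fits that left out 1 embryo or pair of the same data. The members were also named for the largest called slopes, so keeping direction and call was favoured. The causes were not tested. No paired analysis was possible because the labels give no shared replicate numbers, apart from the pairs matched by label time. Depth limits the lows most: 3 counts were worth up to 51.1 CPM in the second block.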
